A study of Mus musculus with 32 samples.

Results

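The spleen libraries of a mouse degradome study were described here as a whole, both genotypes pooled, by the genes whose uncapped RNA took a larger or smaller share of tags in spleen than in 4 other organs. They are 8 of 32 libraries. The spleens came from 8 male mice, 4 months old, in 2 groups of 4 that were labelled Spleen Ftsj1_DF and Spleen WT. These mice were not the 6 that gave the libraries labelled brain, heart, kidney and liver, with 3 mice per genotype in each organ, also male and 4 months old. Per the labels, the spleen mice formed 3 sets of brothers, 2 of them pairs and 1 of 4 mice, and each set held as many Ftsj1_DF as WT mice, although the labels speak of 4 pairs. Ftsj1 encodes a ribose methyltransferase of transfer RNA, and the labels do not describe the allele of the deficient mice. No treatment was given, and each library was made from whole tissue.

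Degradome sequencing reads the 5′ ends of RNA molecules that carry no cap, such as the products of decapping or of cleavage, so a gene's tags depend both on how much of its RNA a tissue holds and on how that RNA is broken down. Here 5 ug of total RNA was selected for poly(A) tails, an adapter was ligated to the uncapped ends, and short tags were cut out with EcoP15I, an enzyme that cleaves at a distance from its site. The spleen filters blood in its red pulp, where macrophages take up old red cells and where mice also form new ones, and it holds B and T cell zones in its white pulp. The tail of the pancreas lies against it, and the acinar cells of the pancreas make digestive enzymes such as amylases, lipases and trypsinogens.

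For each organ the authors deposited 1 table with a mean normalized count per gene over all its libraries and their genotype comparison, with no value per library. Each mean was divided by the sum of its table and is given as a share, in percent or in ppm (1 ppm is 1 part of 1000000 of that sum). A share has no replicate error here and no test between organs was possible. Shares were not divided by transcript length, so they are compared between tables and not between genes as amounts of RNA. The sums ranged from 48536401 in the kidney table to 73405489 in the brain-named table, and the spleen table summed to 48733902. The rule compared 17758 of 55289 named genes, those with a mean of at least 100 in at least 1 table. Cdhr3 and Slc10a2 just reached that minimum and Gm48496 and BC028777 just missed it, with spleen shares of 1.29, 0.111, 0.142 and 0.0430 ppm.

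The names of 2 of the other tables did not match their marker genes. Alb, the serum albumin made by hepatocytes, took 223022 ppm of the table named for brain and 1222 ppm of the table named for liver. Rbfox3, a neuronal splicing factor, took 6.33 ppm of the first and 728 ppm of the second. They are called the brain-named and the liver-named table, and the median over the 4 other tables does not depend on which is which. A share of 0 does not show absence in these files: 17110 genes were listed at 0 in all 5 tables, among them B2m, which nearly every cell uses.

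A B cell marker stood high in the spleen table, and a second set of transcripts stood beside it. Cd79a, a chain of the B cell receptor complex, took 337 ppm of the spleen table and 1.43 to 3.85 ppm of the other 4. Pnlip, the pancreatic triglyceride lipase, took 55949 ppm of the spleen table, the highest share of any gene, and 74.6 to 679 ppm of the others. Cela1, an elastase of the pancreas, took 35788 ppm against 49.9 to 1121 ppm. For all 3 genes the spleen value lay above each of the other 4 tables. They were chosen with earlier results of these data known, so their values do not test the label spleen. Summed over the 3 lists of acinar products, 23.0% of the spleen table was acinar, 8.33% was erythroid and 2.83% belonged to the 9 lists of immune and platelet genes. The lists are not of equal size or completeness, so their sums do not measure how many cells of each kind were present. In bulk tissue, fewer cells of a type and less RNA per cell cannot be told apart.

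**Figure D1:**
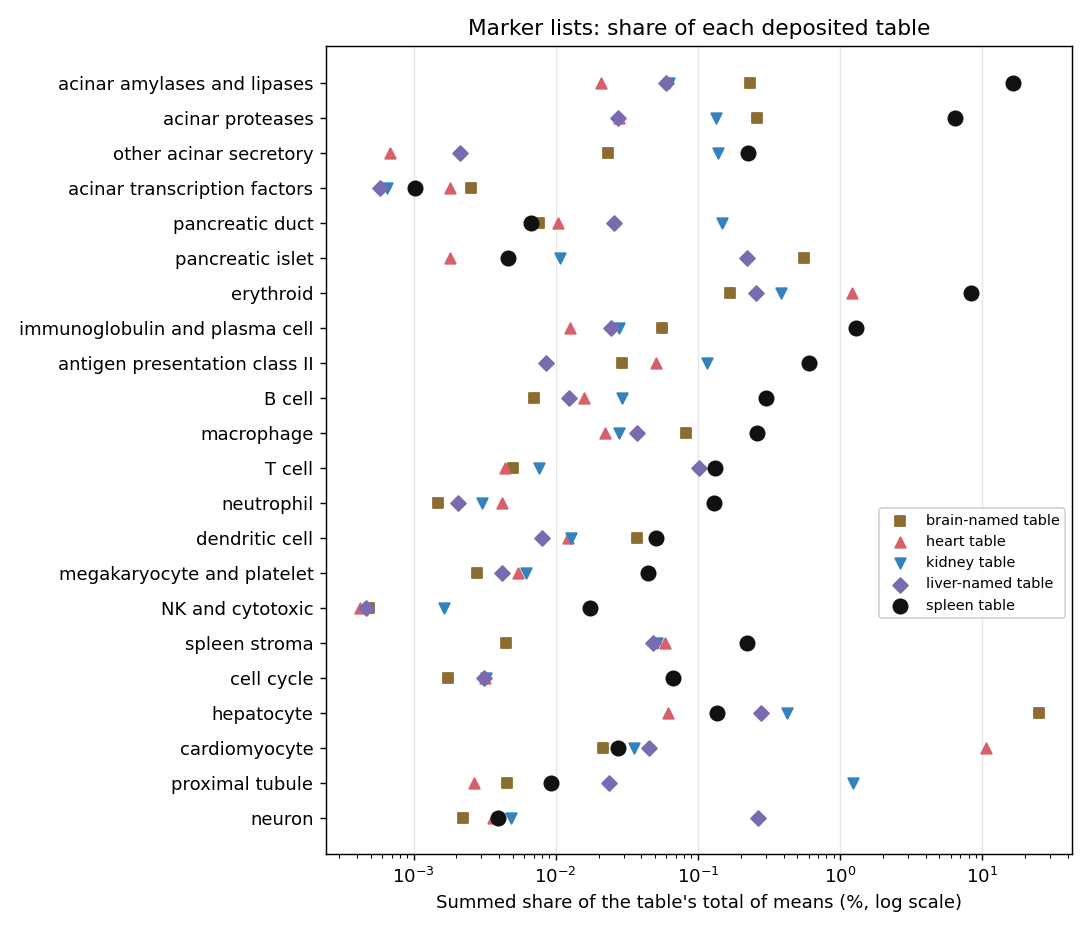
Summed share of each marker list (rows) in the 5 deposited tables, in percent of the table's total of means on a log axis, with 1 point per table and no error bars because the tables hold no value per library. The spleen points of the acinar enzyme lists lie at 16.3% and 6.42%, and the spleen points of the erythroid and immune lists lie to the right of the other tables, while duct, islet and transcription factor lists do not.

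A gene was called higher where its spleen share, plus 1 ppm, was at least 4-fold above the median of the other 4 tables, plus 1 ppm, and lower where it was at least 4-fold below. By this rule 1254 of 17758 genes (7.06%) were higher and 1174 (6.61%) were lower, and the median log2 ratio of all compared genes was -0.13. Clec2i was just inside the upper limit, with 3.77 ppm against a median of 0.191 ppm, and Krt78 was just outside it, with 3.21 against 0.0523 ppm. Scp2 was just inside the lower limit, with 3.48 against 16.9 ppm, and Anks6 was just outside it, with 0.935 against 6.74 ppm. Leaving the acinar lists out of every sum raises each remaining spleen share by 0.377 on the log2 scale. With them left out, 1664 genes were higher and 851 lower, which moved the higher genes from 51.6% to 66.2% of those called and the median ratio of all genes from -0.13 to 0.09. The direction of the acinar, erythroid, immune, stromal, cell cycle, ribosomal and mitochondrial medians given here was the same on that scale and with median-of-ratios scaling.

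A gene that reached the minimum mean in the spleen table alone had a higher mean there than in any other table by that choice. Of the compared genes, 664 did so, and 299 of those were higher. Among the 17094 genes that reached the minimum in another table, 955 (5.59%) were higher. Against the highest of the other 4 tables rather than their median, 626 genes (3.53%) stood at least 4-fold above, and 72 (0.405%) stood at least 4-fold below the lowest.

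**Figure D2:**
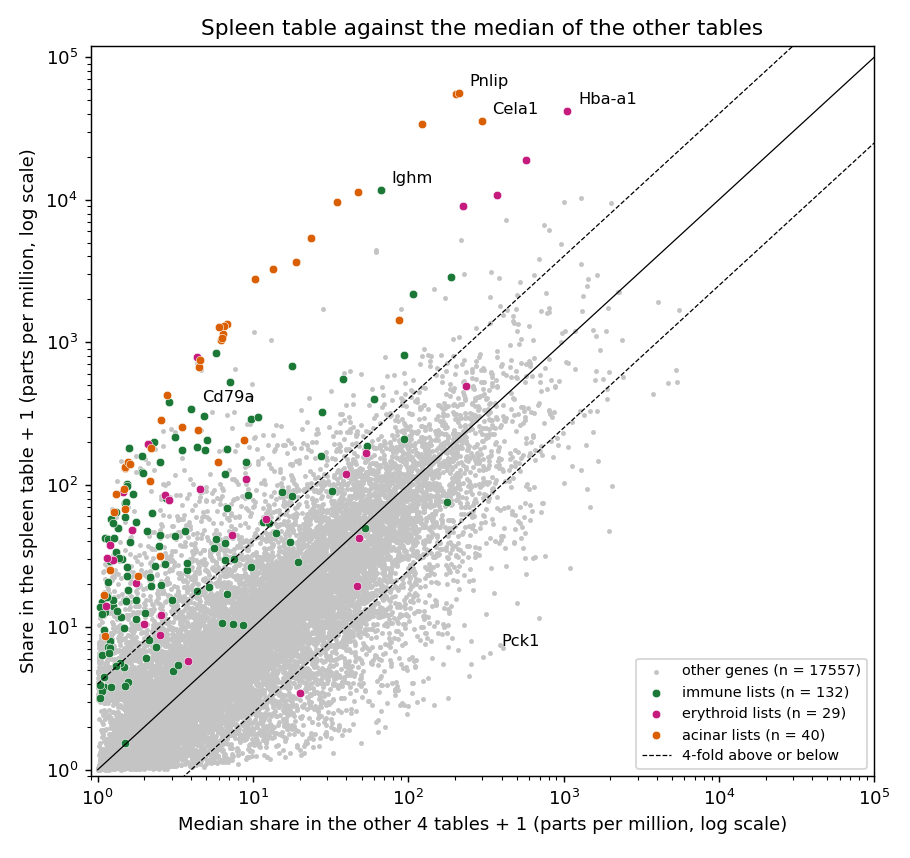
Share in the spleen table against the median share in the other 4 tables, both plus 1 ppm on log axes, for the 17758 compared genes. Solid and dashed lines mark equality and 4-fold differences; acinar genes (orange) form a band far above the upper line, erythroid (magenta) and immune genes (green) lie mostly above it, and no acinar gene lies on or below it.

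The spleen table was concentrated in few genes. Its 10 highest genes took 28.6% of the sum, and 98 genes made up 50% of it, against 118 in heart, 612 in kidney, 62 under the brain name and 763 under the liver name. The 10 were Pnlip, Amy2a2, Hba-a1, Cela1, Amy2a5, Hba-a2, Ighm, Ctrb1, Hbb-bs and Ly6e, in falling order of share. Of these, 5 encode digestive enzymes, 3 encode globin chains of hemoglobin, and Ighm encodes the heavy chain of IgM. Ly6e, a surface protein of many cell types, stood at 10217 ppm against 487 to 2503 ppm, a smaller difference than the other 9 showed against their median.

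The acinar lists held 45 genes for products of exocrine pancreas. Of these, 4 were listed at 0 in all tables (Ctrc, Cela2a, Sycn and Cuzd1), Tmed6 missed the minimum mean, and each of the 40 compared genes was higher in spleen, beside 7.06% of all compared genes. The minimum was reached in spleen alone by 5 of them, and each of the other 35 was higher. Against the highest other table, 37 of 40 stood at least 4-fold above, beside 3.53% of all genes. The median log2 ratio was 6.67 on the scale of ppm plus 1.

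Amylases and lipases, which digest starch and fat, made up 16.3% of the spleen table, and 12 of 12 genes were higher with a median log2 ratio of 7.59. Amy2a2, a pancreatic amylase, took 55417 ppm of the spleen table, against 62.8 ppm in heart, 207 ppm in kidney, 198 ppm under the liver name and 756 ppm under the brain name. Amy2a5 took 33895 ppm against 43.4 to 245 ppm, Amy2a3 took 9625 ppm against 13.7 to 186 ppm, and Amy2b took 3628 ppm against 5.26 to 136 ppm. The Amy2 copies are nearly identical, so how reads were split among them is uncertain. Among the other members, the phospholipase Pla2g1b took 1304 ppm, colipase Clps 1030 ppm and the carboxyl ester lipase Cel 745 ppm, each against under 180 ppm in every other table. Pnliprp2 had the lowest share of the list, 66.9 ppm, which was still above the 5.67 ppm of the brain-named table.

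Proteases made up 6.42% of the spleen table, and 17 of 17 compared genes were higher, with a median log2 ratio of 6.91. Ctrb1, a chymotrypsinogen, took 11400 ppm against 16.0 to 425 ppm, and Cpa1 and Cpb1, carboxypeptidases, took 5355 and 3262 ppm against at most 351 and 143 ppm. Cela3b took 2795 ppm against 3.28 to 122.5 ppm. The trypsinogens Try4 and Prss2 took 1277 and 1148 ppm, against at most 61.8 and 150 ppm, and belong to a family of close copies for which read assignment is likewise uncertain. In this list Klk1, a kallikrein that the kidney also makes, was higher in kidney (701 ppm) than in spleen (144 ppm).

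The list of other acinar products made up 0.226%, with 11 of 11 compared genes higher. Rnase1, the pancreatic ribonuclease, took 1077 ppm against 1.85 to 174 ppm. Erp27 and Pdia2, which act in protein folding in the endoplasmic reticulum, took 283 and 243 ppm against at most 4.94 and 24.2 ppm. Spink1, a trypsin inhibitor, took 205 ppm in spleen but 1327 ppm in kidney, and Cckar, the cholecystokinin receptor, 30.6 and 49.1 ppm. Klk1, Spink1 and Cckar were thus the 3 acinar members not 4-fold above the highest other table. Chosen after their values were seen, Amy1, the pseudogene Amy2-ps1 and Reg3d took 4426, 3698 and 105 ppm in spleen, and they raised the acinar sum to 23.8%.

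A list of 5 transcription factors of acinar cells was kept apart from their products. Nr5a2 and Gata4 were the 2 of them that reached the minimum mean, and neither was higher, at 4.38 ppm against 2.04 to 20.4 ppm and 1.61 ppm against 1.81 to 15.7 ppm. Bhlha15, Rbpjl and Ptf1a, which are typical of acinar cells, took 2.01, 1.93 and 0.330 ppm of the spleen table, above the highest of the other tables in each case (0.282, 0.199 and 0.00770 ppm).

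Lists for other cells of the pancreas took small shares beside the acinar products. Of 8 duct genes, 1 was higher and 1 was lower, beside 7.06% and 6.61% of all compared genes. In a list this short, such counts cannot be told from those shares. The list took 0.00667% of the spleen table. Muc1, a mucin of many epithelia, was the higher gene at 12.7 ppm, although kidney held 25.1 ppm, and the bicarbonate transporter Slc4a4 was the lower at 4.89 ppm against 17.3 to 569 ppm. Krt7 and Krt19, keratins of simple epithelia, took 25.9 and 17.7 ppm and were neither. Of 7 compared islet genes, Ins2, an insulin gene, was higher at 5.73 ppm against 0.530 to 1.77 ppm, and Ttr was lower. The same limit holds for these counts, and the islet list took 0.00461% of the spleen table. Chga and Pcsk1, of endocrine granules, took 3.37 and 2.19 ppm and were highest in the liver-named table. Gcg and Ins1 took 0.336 and 0.524 ppm and did not reach the minimum mean.

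Of the lists for neighbouring tissues, 1 gene of stomach and none of fat or mesothelium was higher, beside 7.06% of all compared genes. In lists this short, such counts cannot be told from that share. Of 9 compared adipocyte genes none was higher and Pck1 was lower, with Adipoq and Plin1 at 0.341 and 0.580 ppm. Retn, Cfd and Acvr1c, the leading adipocyte-list genes in spleen, took 108, 10.8 and 10.7 ppm and were neither. None of 4 compared mesothelial genes was higher, with Wt1 and Upk3b leading at 8.38 and 8.16 ppm. Of the stomach genes, Gkn1, Gkn2 and Muc5ac took 0.00635, 0.00945 and 0.135 ppm, while Tff2, a trefoil peptide of the stomach that other tissues make too, took 712 ppm against 1.09 to 16.5 ppm.

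The leading transcripts of other organs were found in the spleen table only at low shares, none of them higher, beside 7.06% of all compared genes. Hepatocyte genes with at least 50 ppm in the brain-named table stood in spleen at a median of 0.520% of that share (n = 12 genes). Cardiomyocyte genes stood at 0.287% of their share in heart (n = 7), proximal tubule genes at 0.269% of their share in kidney (n = 9) and neuron genes at 0.992% of their share in the liver-named table (n = 9). Alb took 1191 ppm of the spleen table and Myl3, a cardiac myosin light chain, 81.5 ppm.

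Most acinar transcripts in turn were found in the heart, kidney and liver-named tables at similar fractions of their spleen share within each table. Over the 35 acinar genes with at least 50 ppm in spleen, the median was 0.147% in heart, with a middle range from 0.135% to 0.196%. It was 0.439% in kidney (0.390% to 0.603%) and 0.433% in the liver-named table (0.378% to 0.589%). The extremes were 0.0992% and 13.1% in heart, 0.313% and 648% in kidney, and 0.327% and 2.27% in the liver-named table. Hepatocyte genes of the brain-named table had medians of 0.227% in heart, 0.616% in kidney and 0.552% in the liver-named table. Other lists varied: proximal tubule genes had 0.142% of their kidney share in heart, near the acinar median there. Cardiomyocyte genes had 0.349% of their heart share in kidney and 0.448% in the liver-named table. Neuron genes had 1.31% of their liver-named share in kidney. For acinar genes the brain-named table was the exception, with a median of 4.38%, a middle range from 2.05% to 6.43% and extremes of 0.665% for Ctrl and 17.1% for Clps. Exceptions in kidney were Klk1 and Spink1, at 488% and 648%. What sets these fractions was not tested.

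**Figure D3:**
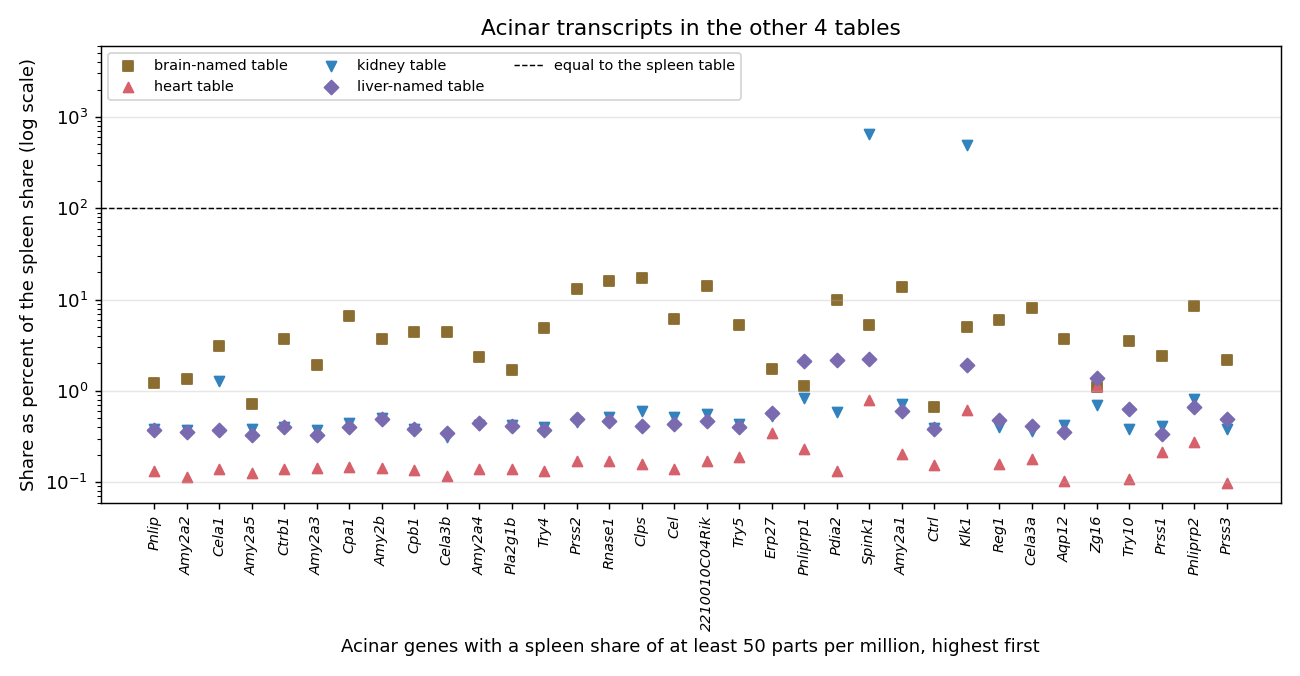
Share of each acinar gene in the other 4 tables, as percent of its share in the spleen table on a log axis, for the acinar genes with at least 50 ppm in spleen except 1 that is not reported, ordered by spleen share. Most heart points lie near 0.147%, most kidney and liver-named points near 0.439% and 0.433%, and brain-named points higher and more scattered. Klk1 and Spink1 lie above the line of equality in kidney.

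The promoters of these members are shown because acinar genes are textbook targets of PTF1, a complex of Ptf1a, an E protein and Rbpj or Rbpjl that binds the E-box letters CACCTG beside the letters TTTCCC. Promoters were taken from RefSeq (build GRCm38.p6), 250 bases upstream of the first listed start of each gene, and searched on both strands for these letters. The search also covered the letters AGATAA, which GATA factors of red cell precursors and other tissues bind. It covered the octamer, TGCAAAT, a B cell promoter element. It covered AGGAAGT, a form of the site of PU.1, a regulator of myeloid and B cells, and CACACCC, a form of the site of the erythroid factor KLF1. The deposited tables were made on GRCm39, so no coordinate is shared with them. The windows lie at chr15:100687921-100688170 (Cela1, minus strand), chr6:41521526-41521775 (Prss2, plus strand), chr19:58670115-58670364 (Pnlip, plus strand) and chr7:24897247-24897496 (Cd79a, plus strand). Each sequence runs 5′ to 3′ toward the gene, with matches in capitals. Cela1 and Prss2 hold both PTF1 letters, close beside each other in Cela1 but apart in Prss2. Pnlip holds neither, and Cd79a is the B cell marker for contrast.
Cela1: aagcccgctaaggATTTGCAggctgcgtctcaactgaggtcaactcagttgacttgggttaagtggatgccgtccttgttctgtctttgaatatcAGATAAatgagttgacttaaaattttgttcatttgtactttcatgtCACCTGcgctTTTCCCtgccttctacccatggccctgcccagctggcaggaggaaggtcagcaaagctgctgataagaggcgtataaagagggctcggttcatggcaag
Prss2: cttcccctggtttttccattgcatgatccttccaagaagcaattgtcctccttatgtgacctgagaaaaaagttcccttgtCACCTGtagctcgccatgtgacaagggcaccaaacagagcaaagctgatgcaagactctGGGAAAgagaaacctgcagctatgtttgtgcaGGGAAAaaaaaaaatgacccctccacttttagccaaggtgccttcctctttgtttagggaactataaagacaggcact
Pnlip: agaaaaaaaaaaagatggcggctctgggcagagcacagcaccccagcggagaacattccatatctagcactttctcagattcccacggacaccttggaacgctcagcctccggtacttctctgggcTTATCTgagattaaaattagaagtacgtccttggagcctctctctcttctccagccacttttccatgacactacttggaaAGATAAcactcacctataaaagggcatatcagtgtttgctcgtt
Cd79a: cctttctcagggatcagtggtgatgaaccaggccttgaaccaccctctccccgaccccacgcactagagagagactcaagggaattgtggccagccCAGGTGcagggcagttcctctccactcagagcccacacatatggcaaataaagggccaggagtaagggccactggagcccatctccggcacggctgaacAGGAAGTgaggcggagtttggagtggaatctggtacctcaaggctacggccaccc
In Prss2, CACCTG lay 169 to 164 bases before the start. In Cela1, CACCTG lay 109 to 104 bases before the start and TTTCCC 99 to 94 bases before it, and the capitals further upstream are the octamer on the other strand and AGATAA. The capitals GGGAAA in Prss2 are TTTCCC read on the other strand, at 2 places, 110 to 105 and 78 to 73 bases before the start. Neither place lies beside its CACCTG. Pnlip held AGATAA 44 to 39 bases before its start and on the other strand 124 to 119 bases before it. Cd79a held CACCTG on the other strand and AGGAAGT 55 to 49 bases before its start.

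Of 45 acinar genes, 36 had a promoter in the RefSeq table. CACCTG was present in 21 of 36, against 17.1% of all 27025 promoters, and TTTCCC in 10 of 36, against 21.9%. Both were present in 7 of 36 (Cel, Prss1, Prss2, Gm5771, Cela1, Cela2a and Cela3a), against 3.63% of all promoters. This count took both anywhere in the window, with no rule on their spacing or strand. AGATAA was present in 10 of 36, against 10.3%. CACCTG was also present in 9 of 18 B cell promoters, so its share was not limited to the acinar lists. AGGAAGT was present in 9 of 17 neutrophil, 6 of 16 T cell, 4 of 13 macrophage and 5 of 18 B cell promoters, against 7.80% of all promoters. AGATAA was present in 7 of 21 erythroid promoters, TGCAAAT in 4 of 18 B cell promoters, against 3.48% of all, and CACACCC in 3 of 21 erythroid promoters, against 6.85%. Several of the acinar genes are copies of each other, so their promoters are not independent. A match describes letters and not a bound site.

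Erythroid genes made up 8.33% of the spleen table, against 0.168% of the brain-named, 1.20% of the heart, 0.383% of the kidney and 0.255% of the liver-named table. Of 32 listed genes, Ahsp had no row, Alas2 was listed at 0 and 29 were compared. Of those, 21 were higher and 1 was lower, beside 7.06% and 6.61% of all genes, and the minimum was reached in spleen alone by 7. The median log2 ratio was 3.63.

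Globin genes led the list. Hba-a1, an alpha chain, took 41732 ppm of the spleen table, 6451 ppm of the heart, 1453 ppm of the kidney, 659 ppm of the brain-named and 653 ppm of the liver-named table. Hba-a2 took 19057 ppm against 369 to 2823 ppm, Hbb-bs 10870.5 ppm against 193 to 1461 ppm, and Hbb-bt 9059 ppm against 163 to 1197 ppm. Each was highest in spleen and next highest in heart. Hba-a1 and Hba-a2 are nearly identical, so the split between them is uncertain, and Hba-ps3, a pseudogene chosen after its value was seen, took 4284 ppm.

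Some genes of erythroid precursors were high as well. Slc4a1, the anion exchanger of the red cell membrane, took 781 ppm, against 66.9 ppm in kidney, where a form of it is also made, and 2.28 to 3.49 ppm elsewhere. The transcription factors Klf1 and Gata1 took 91.9 and 36.7 ppm against at most 6.35 and 0.671 ppm. Members that other tissues use stood less apart: Car2, a carbonic anhydrase, took 492 ppm against 455 ppm in kidney and 485 ppm in the liver-named table. Tfrc and Fech were not called, at 41.1 ppm against 11.7 to 214 ppm and 18.6 ppm against 10.3 to 75.9 ppm. Ank1 and Car1 were not called either. Mgst3, a microsomal glutathione transferase, was the 1 lower gene, at 2.43 ppm against 14.9 to 168 ppm.

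The 9 lists of immune and platelet genes held 155 genes, of which 7 were listed at 0 and 132 were compared. Of these, 103 were higher and none was lower, beside 7.06% and 6.61% of all genes, with a median log2 ratio of 3.43. The minimum was reached in spleen alone by 48, and of the other 84 genes 64 were higher. Against the highest other table, 75 stood at least 4-fold above.

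B cell genes were higher in 21 of 23 compared members and took 0.300% of the table. The minimum was reached in spleen alone by 10 of the 23, and of the other 13 genes 12 were higher. Btk, a kinase of B cell receptor signalling, took 402 ppm against 12.4 to 121 ppm, and Fcmr, the receptor for IgM, 383 ppm against 1.44 to 2.10 ppm. Cd72, an inhibitory co-receptor, took 290 ppm against 3.35 to 43.6 ppm. These 3 genes were higher in spleen than in any other table. Cd22, another inhibitory co-receptor, took 121 ppm against at most 1.08 ppm. The 2 members not called were Ebf1, at 44.8 ppm against 2.65 to 18.1 ppm, and Vpreb3, at 2.84 ppm.

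Immunoglobulin and plasma cell genes were higher in 10 of 14 compared members. The minimum was reached in spleen alone by 7 of the 14, and of the other 7 genes 4 were higher. The list took 1.29% of the table, most of it in Ighm, at 11666 ppm against 35.9 to 77.1 ppm. Ighd, the IgD heavy chain, took 843 ppm against 3.69 to 9.07 ppm. Jchain, which joins IgM and IgA units, took 74.8 ppm against 0.386 to 1.75 ppm, and Igha 62.9 ppm against 0.202 to 2.14 ppm. These 4 genes for antibody chains and their link thus lay far above every other table. The IgG genes Ighg2c, Ighg3, Ighg2b and Ighg1 took 49.0, 41.1, 19.7 and 14.2 ppm. The 4 members not called were all plasma cell genes that encode no antibody chain. Xbp1, a regulator of secretory cells, took 75.1 ppm in spleen and 448 ppm in the brain-named table, and Sdc1, a surface proteoglycan, 9.49 and 67.0 ppm. Prdm1, a regulator of plasma cell formation, took 3.93 ppm against 1.18 to 3.09 ppm, and Tnfrsf17, a receptor of plasma cells, 2.56 ppm against 0.0372 to 1.33 ppm. Derl3, of protein quality control, was higher, at 14.6 ppm against 0.0492 to 4.75 ppm. Igkc, Iglc1, Iglc3 and Mzb1 were listed at 0 in all tables.

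T cell genes were higher in 20 of 27 compared members and took 0.133%. The minimum was reached in spleen alone by 10 of the 27, and of the other 17 genes 15 were higher. Ccr7, which guides naive T cells and dendritic cells, took 303 ppm against 2.56 to 6.26 ppm. The receptor genes Trac and Cd3d took 176 and 175 ppm against at most 8.87 and 5.54 ppm, and Cd8b1 120 ppm against 0.558 to 2.20 ppm. Thy1, which neurons also carry, was higher in the liver-named table (874 ppm) than in spleen (52.7 ppm). Cytotoxic genes were higher in 7 of 7 compared members of 13. The minimum was reached in spleen alone by 4 of the 7, and each of the other 3 was higher. The cytotoxic list was led by the chemokine Ccl5 at 62.5 ppm, the receptors Klrd1 and Klrk1 at 54.0 and 17.3 ppm and the protease Ctsw at 18.7 ppm.

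Antigen presentation genes of class II took 0.606%, with 7 of 9 compared members higher. Cd74, the invariant chain, took 2869 ppm against 28.1 to 414 ppm, H2-Eb1 2181 ppm against 19.4 to 337 ppm and H2-Aa 548 ppm against 7.93 to 159 ppm. H2-Ab1 was not called, at 185 ppm in spleen and 194 ppm in kidney. Dendritic cell genes were higher in 5 of 8 compared members, with Irf8 at 176 ppm against 3.77 to 18.0 ppm and Itgax at 46.6 ppm against 0.603 to 6.06 ppm. Flt3 took 27.2 ppm in spleen and 25.6 ppm in the liver-named table, and Bst2 was higher in the brain-named table (357 ppm) than in spleen (207 ppm).

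Macrophage genes were higher in 13 of 20 members and took 0.259%. Csf1r, the receptor for macrophage growth factor, took 806 ppm against 79.1 to 154 ppm. Hmox1, which breaks down heme, took 681 ppm against 10.1 to 42.4 ppm, and Timd4, a receptor for dying cells, 182 ppm against 0.847 to 9.71 ppm. These 3 genes were highest in spleen, whereas some others of the list were not. Cd5l took 216 ppm in spleen and 282 ppm in the brain-named table, where hepatocyte genes stood. Spic, needed for red pulp macrophages, took 8.90 ppm against 0.193 to 0.820 ppm. The complement genes C1qa, C1qb and C1qc were not called, at 88.8, 48.7 and 27.5 ppm.

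Neutrophil genes were higher in 13 of 14 compared members. The minimum was reached in spleen alone by 10 of the 14, and each of the other 4 was higher. Ltf, lactoferrin, took 521 ppm against 3.71 to 14.2 ppm, Lcn2 300 ppm against 3.31 to 15.4 ppm and Ngp 179 ppm against 0.357 to 1.42 ppm. Elane, the elastase of neutrophil granules, took 56.3 ppm against 0.0135 to 0.420 ppm. Megakaryocyte and platelet genes were higher in 7 of 10 compared members, led by the integrin Itga2b at 324 ppm against 22.7 to 58.5 ppm, Treml1 at 29.7 ppm, Pf4 at 27.0 ppm and Gp5 at 21.5 ppm. Of these 10 members, 5 reached the minimum in spleen alone, and 3 of the other 5 were higher.

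Stromal genes of spleen were higher in 4 of 4 compared members of 10, beside 7.06% of all compared genes, and 2 of them reached the minimum in spleen alone. Mfge8, a bridge for the uptake of dying cells, took 2159 ppm against 38.5 to 584 ppm. Madcam1, a vascular addressin of the marginal sinus, took 26.9 ppm against 0.0723 to 0.198 ppm, and Cxcl13, a B cell attractant, 3.69 ppm against 0.0111 to 0.140 ppm. Stab2, a scavenger receptor of sinus endothelium, was also higher, with 0.451 to 5.96 ppm in the other tables.

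**Figure D4:**
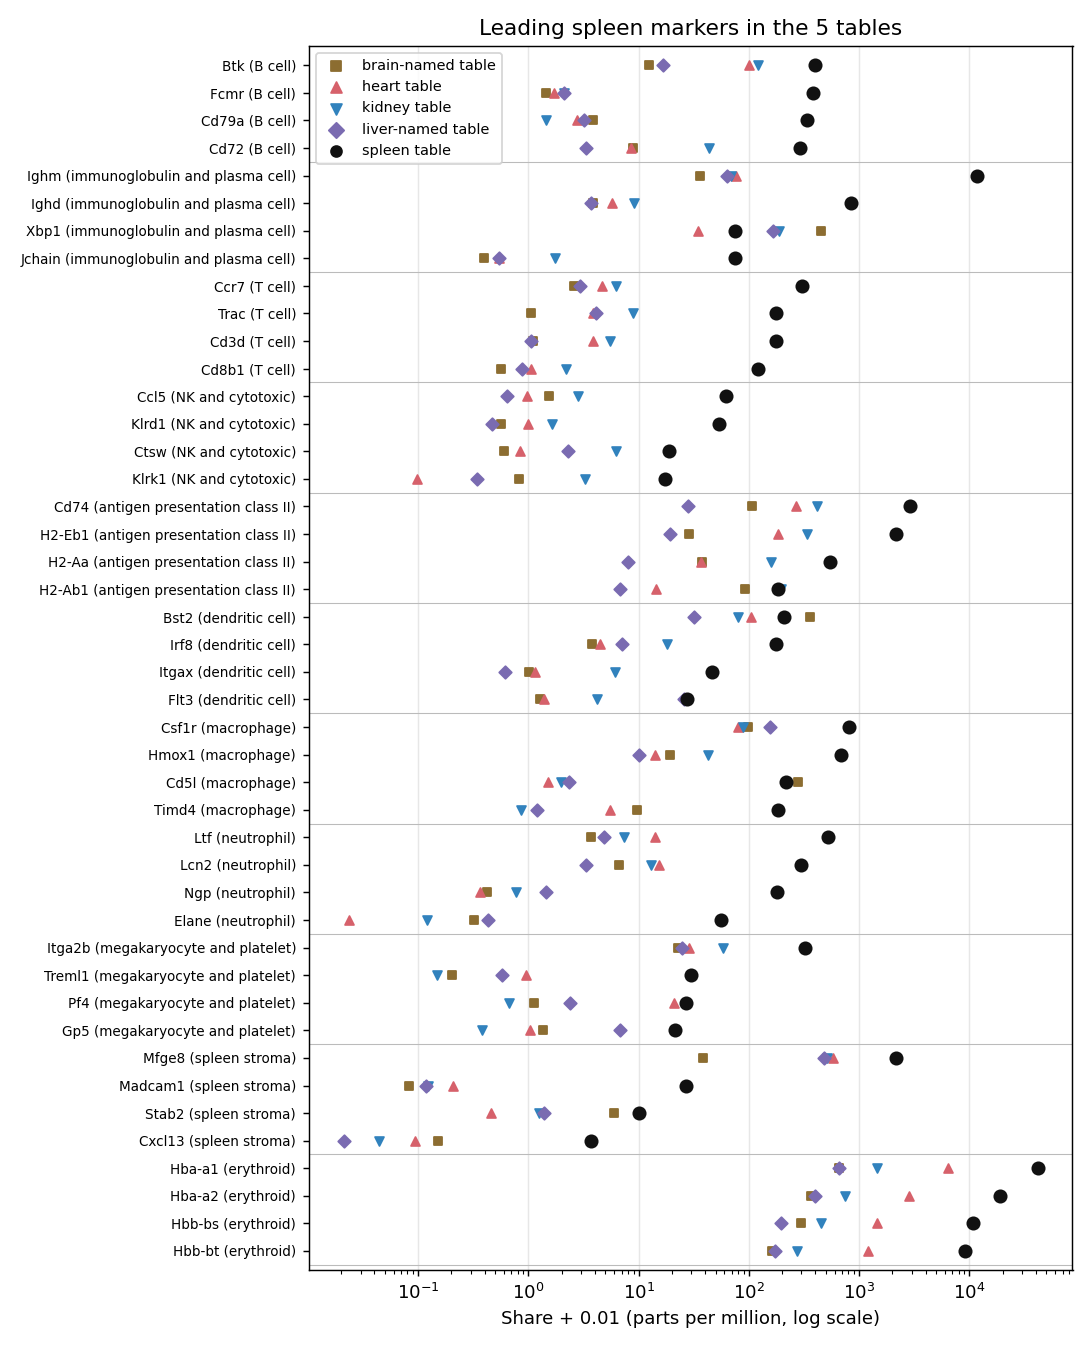
Share in the 5 tables of the 4 members with the highest spleen share in each immune, stromal and erythroid list, in ppm plus 0.01 on a log axis, with 1 point per table and no error bars. The spleen point lies to the right of the other 4 for nearly every gene; Xbp1, H2-Ab1, Bst2 and Cd5l are the genes for which another table lies further right.

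By ratio alone, the 20 genes with descriptive symbols that stood furthest above the median of the other tables included 16 members of the acinar lists and Amy2-ps1. Amy2a5, Amy2a3, Amy2a2, Cela3b and Pnlip led, with log2 ratios of 8.11, 8.11, 8.09, 8.09 and 8.05, followed by Cpb1 (7.92), Ctrb1 (7.92), Cpa1 (7.81), Try4 (7.73), Pla2g1b (7.65), Amy2a4 (7.61) and Amy2b (7.57). Prss2, Rnase1, Cel and Clps stood at 7.49, 7.41, 7.36 and 7.36. The 3 genes of other kinds were Slc4a1 at 7.48, Ighm at 7.46 and Tff2 at 7.35. These ratios are descriptions of the members and were not tested.

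At the other end, the 10 smallest ratios belonged to Fbp1, Aldh8a1, Car14, G6pc, Slc27a2, Aspdh, Pck1, Ces1f, Calb1 and Atp1b1, with log2 ratios from -5.91 to -5.38. Fbp1, an enzyme of gluconeogenesis, took 10.5 ppm of the spleen table, 1379 ppm of the brain-named and 1970 ppm of the kidney table, but 5.55 and 11.8 ppm of the heart and liver-named tables. For Fbp1 the median lay between 2 high and 2 low tables, and spleen was like the low ones. Car14, a membrane carbonic anhydrase, differed from Fbp1: it took 2.19 ppm of the spleen table and 79.0 to 239 ppm of every other one.

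Transcripts of the mitochondrial genome were scarce in the spleen table. Symbols starting with mt- took 0.0736% of it, against 0.248% to 1.11% of the other tables, and 24 of 33 compared genes were lower and none higher, beside 6.61% and 7.06% of all genes, with a median log2 ratio of -2.43. Symbols that start with Rpl or Rps and hold no hyphen, mostly of ribosomal proteins, took 3.25% against 0.303% to 1.17%. Of 88 compared, 29 were higher and none lower, with a median log2 ratio of 1.498. Pseudogenes with -ps in their symbol or with a Gm number are left out. Rpsa-ps7, chosen after its value was seen, took 7205 ppm of the spleen table outside this sum. The choice by symbol does not exclude kinases named Rps6k. Both groups were chosen after earlier results of these data were known.

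The spread between spleen libraries can be seen only through the standard error of the log2 fold change in the authors' deposited table, which compares 4 Ftsj1_DF with 4 WT libraries. Over the 4686 genes with a mean of at least 1000, that standard error had a median of 0.532, and 90% of genes lay between 0.395 and 0.790. It reached 1 in 80 genes (1.71%). Of those 80 genes, 35 were acinar, 4 erythroid and 1 immune. For the 38 acinar genes with such a mean the median was 1.13, from 0.918 for Erp27 to 1.87 for Aqp12, so 35 of 38 reached 1. Pnlip had 1.14 and Cela1 1.09, although their means were among the highest of the table. The median was 0.873 for 21 erythroid genes and 0.539 for 83 immune genes, and Cd79a had 0.457.

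Of the 40 remaining genes with a standard error of at least 1, 33 were higher in spleen, beside 7.06% of all compared genes. These 40 were limited to genes with a high mean in spleen, a choice that favors higher genes. The share called higher among all genes with such a mean was not counted, so 33 of 40 has no fitting background. The 33 included, chosen after their values were seen, Amy1 (1.13), Amy2-ps1 (1.15), Tff2 (1.14), Reg3d (1.21), Thsd1 (1.10) and Mei4 (1.15). Thsd1 and Mei4 took 247 and 324 ppm of the spleen table and stood lower in each of the others. The acinar genes thus had larger standard errors than most genes of like mean. Which libraries were high is not shown by a table of means.

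**Figure D5:**
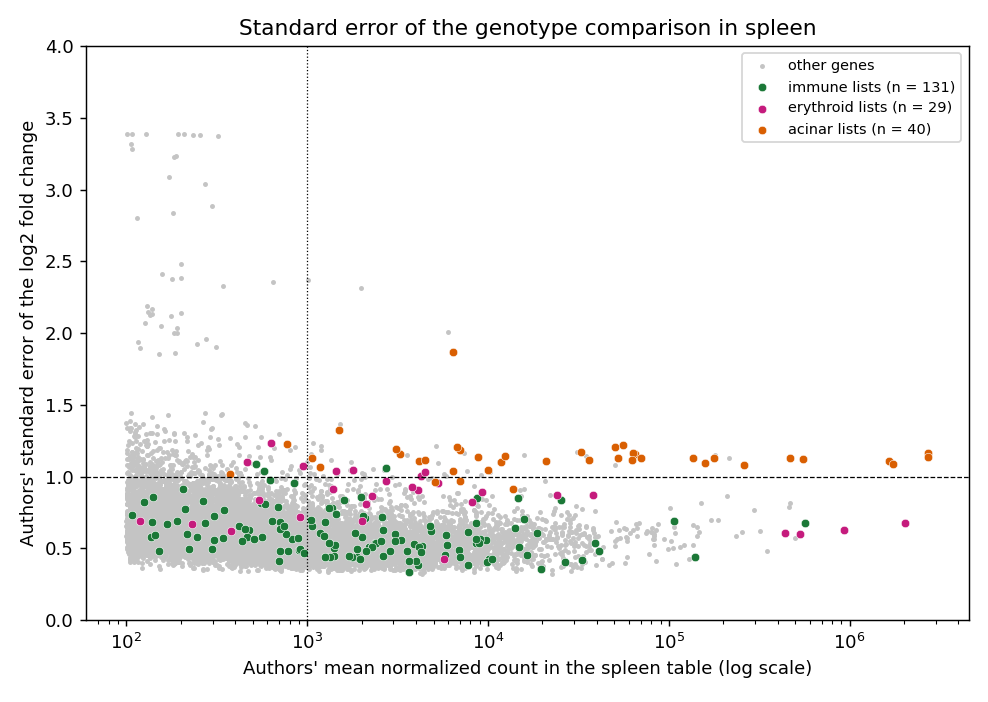
Standard error of the log2 fold change between genotypes in the authors' deposited spleen table against the authors' mean normalized count on a log axis, for compared genes with a mean of at least 100. Acinar genes (orange) lie mostly near 1.13, above the median of 0.532 of genes with a mean of at least 1000 (right of the dotted line), and the dashed line marks 1.

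Between genotypes, the authors' deposited table called 50 of 23092 genes in spleen (0.217%) at a false discovery rate of 5%. Its log2 fold change for Ftsj1 itself was -3.17 ± 0.77 (DESeq2 adjusted p = 0.0262), so negative values are read as lower in Ftsj1_DF mice. Of 40 acinar genes with an adjusted p, DESeq2 called none, and 3 had an unadjusted p under 0.05, beside 4.22% of all genes with a p. The median log2 fold change of these 40 was -0.44, and 34 were negative. The share of all genes with a negative value, called or not, was not counted, so the 34 of 40 has no background here. Of all genes with an adjusted p, 22 (0.0953%) passed the false discovery rate with a negative value, which is a different measure. Tmed6, at -3.68 ± 1.17 (DESeq2 adjusted p = 0.229), and Cckar, at -2.76 ± 1.33 (adjusted p = 0.768), had the smallest p among acinar genes in the authors' deposited table. Pnlip and Cela1 stood at 0.08 ± 1.14 and -0.35 ± 1.09 there. With standard errors of this size, a genotype difference of several-fold in acinar share was not detectable.

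In the same deposited table, DESeq2 called none of the 145 immune and 30 erythroid genes with an adjusted p. An unadjusted p under 0.05 was found for 7 and 0 of them, beside 4.22% of all genes with a p. Of the erythroid genes 2 were negative, and their median was 0.67. Hemgn stood at 1.45 ± 0.92 (adjusted p = 0.972) and Cldn13 at 1.31 ± 1.00 (adjusted p = 0.9995). Neutrophil genes had a median of 1.22, with Elane at 2.34 ± 1.06 (adjusted p = 0.712), and immunoglobulin genes one of -0.64, with Ighg2b at -1.11 ± 0.47 (adjusted p = 0.642). Beside them, islet genes were negative in 11 of 11 tested members, with Gcg at -3.17 ± 1.27 (adjusted p = 0.567) and Ins2 at -2.84 ± 1.19 (adjusted p = 0.616). None of these genes passed the authors' test, and their part in the acinar values was not tested. Genes of a list come from the same libraries, so the count of signs does not weigh as separate evidence. No share of signs over all genes stands beside these counts.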

How the data were processed

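Uncapped poly(A) RNA of 32 mouse libraries was measured, 8 of them from spleen. Per the submitters' processing notes, reads were counted on GRCm39 with featureCounts of Subread 2.0.3 and compared with DESeq2; the aligner and the version and model of DESeq2 are not given in the sources used here. Each gene's deposited value is a signal, the mean normalized count that the authors took over an organ's libraries. Fold changes with standard errors were deposited on a log2 scale, the deposited test statistic is a score, and each p-value, raw or adjusted, comes from the authors. The row without a gene name was left out; its mean was at most 3.62 in any table. The tables give no depth for single libraries, so shares carry no error and no interval.

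Each mean was divided by the sum over named genes of its table. Ratios used a pseudocount of 1 ppm, the median of the other 4 tables, a minimum mean of 100 in at least 1 table and a limit of 4-fold. The code for the calls was run on simulated tables with planted changes larger than the limit and little noise. That run checks the code and does not measure how reliable the calls are in real organs. Members and all 27 marker lists were chosen with earlier results of these data known, and 2 lists on energy metabolism were written after the values were seen. The text names Cd79a, Pnlip and Cela1, the 10 highest shares, the 20 largest and 10 smallest ratios, up to 4 members with the highest share per list, members against the direction of their list and, between genotypes, the 2 smallest p; further genes are named as chosen after their values were seen or as members of a list. Some list members are counted but not reported by name here. Promoters came from RefSeq. Python 3.11.15 with numpy 2.4.6, pandas 2.3.3 and matplotlib 3.10.9 was used. Alternatives covered the pseudocount, the minimum mean, the scaling, the reference tables, the limit and list membership.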

Additional observations from a re-analysis of the deposited data

How the results depend on the processing

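The count of higher genes, 1254, was 442 with a pseudocount of 10 ppm, 810 with a minimum mean of 1000, 626 against the highest other table, 2933 at 2-fold and 528 at 8-fold. The count of lower genes, 1174, was 1983 and 374 with pseudocounts of 0.1 and 10 ppm, 2817 against the mean of the other tables, 72 against the lowest, 3597 and 369 at 2-fold and 8-fold, and 763 without the kidney table. The other 10 and 8 alternatives moved these counts by less than 1.5 times. A minimum mean of 20 or none gave the same counts, which follows from the rule. With a pseudocount of 1 ppm and a limit of 4-fold, any called gene already reaches the main minimum mean in some table. Lowering that minimum could therefore not change either count. These settings are among the 10 and 8 alternatives but say nothing about how stable the counts are. The acinar share, 23.0%, was 17.4% without its highest member (Pnlip), 11.9% without families of near-identical copies and 23.8% with 3 genes added after the data were seen. The immune share, 2.83%, was 3.68% with the acinar lists left out of the sum and 1.66% without Ighm, and the erythroid share, 8.33%, was 10.8% and, without Hba-a1, 4.16%. No acinar gene was called between genotypes by DESeq2's deposited p under the 4 alternatives tried, which were 2 other false discovery rates and 2 other sets of genes to adjust over.

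No paired analysis was possible because the deposited tables hold no value per library; for the same reason no library was left out in turn and no values within sets of brothers were computed. The spleen mice differ from those of the other organs, so mouse and organ cannot be told apart.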

Other observations

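Of the nuclear genes of mitochondrial energy metabolism, 2 lists were counted, both drawn up once the values were known. Of 21 compared genes of the tricarboxylic acid cycle and pyruvate entry, 15 were lower in spleen and none was higher, beside 6.61% and 7.06% of all compared genes, with a median log2 ratio of -2.51. Mdh2, the mitochondrial malate dehydrogenase, took 48.4 ppm of the spleen table and 247 to 439 ppm of the others. Mpc1, a subunit of the mitochondrial pyruvate carrier, took 11.3 ppm against 107 to 626 ppm, and Idh3b, a subunit of isocitrate dehydrogenase, 71.6 ppm against 581 to 2586 ppm. These 3 genes lay at least 4-fold below the lowest of the other tables, as 6 of the 21 did. Of 35 compared nuclear genes of respiratory complex I, 7 were lower and none higher, beside the same 6.61% and 7.06%, with a median of -0.83, or -0.62 with the acinar lists left out of the sums. The other 28 were neither. Ndufv1 took 38.0 ppm against 385 to 651 ppm, whereas Ndufa3 and Ndufb10 took 721 and 654 ppm and lay within the range of the other tables. Mdh1, the cytosolic malate dehydrogenase, is in neither list and was chosen after its values were seen; it took 526 ppm against 3431 to 7519 ppm. The 2 lists summed to 0.135% and 0.260% of the spleen table, against 0.446% to 1.83% and 0.344% to 2.15% of the others.

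Of 13 compared cell cycle genes, 12 were higher, beside 7.06% of all compared genes, 6 of the 13 having reached the minimum mean in spleen alone. Ccnb2, a mitotic cyclin, took 215 ppm against 6.63 to 11.0 ppm, Cdk1 175 ppm against 2.98 to 7.62 ppm, Top2a 79.9 ppm against 1.34 to 4.20 ppm and Plk1 59.3 ppm against 1.40 to 3.28 ppm. Smooth muscle genes were mostly shared with heart and kidney: Myh11 and Lmod1 took 114 and 89.9 ppm in spleen and 120 and 93.2 ppm in kidney, and Actg2, at 72.1 ppm against 1.48 to 24.9 ppm, was the 1 of 6 compared genes that was higher.

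Only 184 of the 1254 higher genes (14.7%) belonged to the marker lists. Among the others, chosen after their values were seen, were Coch, an extracellular matrix protein (1172 ppm against 2.00 to 48.7 ppm), the lymphotoxin gene Ltb (643 ppm against 5.04 to 9.30 ppm), Fcrl1, a B cell surface receptor (178 ppm against 0.870 to 2.46 ppm), and Cd52, a lymphocyte surface peptide (1710 ppm against 9.11 to 69.3 ppm). Ptpn18, a phosphatase, took 5204 ppm against 45.5 to 391 ppm, and Rack1, a ribosomal scaffold protein, 6593 ppm against 441 to 2036 ppm. Rplp1 and Rpsa, proteins of the ribosome, took 6095 and 2038 ppm against at most 2109 and 416 ppm.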
